A study of Homo sapiens with 14 samples.

Results

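Parental OVCAR3, an established human ovarian carcinoma line, was compared with the libraries labelled OVCAR3-DDP, which the submitters describe as its cisplatin-resistant derivative (DDP abbreviates cisplatin). Every library whose title carries either name and no hairpin was taken, 2 against 2, which is 4 of the 14 RNA-sequencing libraries of the series. Both groups carry the same cell line label, and their genotype labels are WT and DDP. Beside them stood the second line, parental A2780 (WT) and A2780-DDP (DDP), and the libraries labelled OVCAR3-DDP that also carry a hairpin, either shNC, used here as the hairpin control, or sh1 or sh2, both labelled shADAR1. Each of these 7 groups held 2 libraries. The labels give no cisplatin dose, no length of exposure, no passage, and no statement on whether a derivative is 1 clone or a pool.

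The libraries labelled OVCAR3-DDP had few or no counts of some genes abundant in the parental libraries, and the reverse held for other genes. The keratins KRT7 and KRT19, the surface protein TM4SF1 and the calcium-binding S100A6 stood at or near 0 there. The patterning factor EN2, the axonal motor KIF1A and the sensory neuron factor POU4F1 stood near 0 in the parental libraries and high in those labelled OVCAR3-DDP. The hairpin libraries go against the shared part of their label: in 105 genes on in the parental libraries and off in those labelled OVCAR3-DDP, the shNC libraries had 73 on and 0 off. Of the 151 genes on in the opposite direction, shNC had 2 on, both noncoding. The pair labelled OVCAR3-DDP without a hairpin is called the DDP-labelled libraries from here on. The directions given are those of this pair and are not claimed for the hairpin libraries, which share some of them. Why the libraries differ in this way was not tested, nor was the descent of one group from the other. Fell, rose, reached and similar words below give the direction of a difference between the DDP-labelled libraries and parental OVCAR3. They do not describe a change followed over time.

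A cell's identity is held by transcription factors that keep some genes open and others silent over many divisions. Keratins form the filaments of epithelial cells, and different keratin pairs mark different epithelia. Ovarian carcinoma cells of the high-grade serous kind usually carry simple keratins, the factor PAX8, mesothelin, the folate receptor and mucins. HOX genes record position along the body axis, and factors such as the EN, PAX, DLX and POU families pattern the neural tube and its crest. In bulk RNA, fewer cells of a type and less RNA per cell cannot be told apart.

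Counts assigned to genes were 35864655 and 49115255 in the parental libraries and 34544898 and 34455993 in the DDP-labelled ones. Between 48.7% and 50% of reads fell on no gene over the 14 libraries, so this did not set the groups apart. Levels are CPM, a gene's counts scaled to the same total of counts on genes in every library, with 2 library values or the mean ± SD (n = 2). Differences are log2 fold changes of the DDP-labelled libraries minus parental OVCAR3, with an approximate standard error (SE) that is the larger of the fitted and the counting error. They were fitted with edgeR's TMM scaling of the library totals, which the CPM do not include. A log2 value can therefore differ from the ratio of the printed CPM, which matters most for small differences. "Called" means an adjusted p below 0.05 with edgeR's quasi-likelihood test and Benjamini-Hochberg adjustment over 23031 genes. The labels do not say that replicates came from separate cultures. The p-values then reflect the spread of these samples alone, which may be technical. The replicates differed by a median of 0.157 on the log2 scale in the parental group and 0.076 in the DDP-labelled group. Intervals and bounds cover counting error only. Scaling by upper quartiles instead moved the median of all genes by 0.101 on the log2 scale. Markers of other cells were also read. Of 9 leukocyte markers tested 4 were called higher and 1 lower, with summed levels of 3.79 and 3.62 CPM in the parental libraries and 6.40 and 8.21 CPM in the DDP-labelled ones, and the pan-leukocyte marker PTPRC had 0 counts in the latter. Of 5 endothelial markers 2 were higher and 3 lower, with CDH5 at 0 in the DDP-labelled libraries, and most of the summed level was EGFL7 (83.1 and 63.9 CPM against 289 and 307.5 CPM). Of 11 fibroblast markers 2 were higher and 5 lower, with COL1A2 at 0 in both groups and COL1A1 the most abundant (63.0 and 57.5 CPM against 107 and 99.4 CPM). PTPRC and COL1A2, defining markers of their lists, were named after their values were seen. The part of other cells in the results was not tested.

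The size of the difference was read against the 2 other contrasts that the parental and DDP libraries allow. Of 23031 genes, 33.4% were called higher and 35.2% lower in the DDP-labelled libraries, and 43.7% (10055) were called with a difference of at least 2-fold. The first 2 shares are the background for every count of called list members. Parental A2780 differed from parental OVCAR3 by at least 2-fold in 41.1% (9464). A2780-DDP differed from parental A2780 in 15.2% (3507). At 8-fold or more the numbers were 4116 genes for the DDP-labelled libraries, 4157 for A2780 against OVCAR3 and 1212 within A2780. The median absolute difference was 0.950, 0.909 and 0.428 on the log2 scale in the same order. By each of these counts the DDP-labelled libraries lay nearer to the distance between 2 different lines than to that between A2780 and its derivative. These contrasts share control libraries, so their values are given side by side only. The interaction contrast, which tests whether the DDP minus parental difference is the same in both lines, called 53.8% of the genes (12391). Between shNC and the DDP-labelled libraries, in a fit of all 14 libraries, 48.8% of 24193 genes were called at 2-fold or more (11801).

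Genes were next counted as on at a group mean of 30 CPM or more and off below 0.3 CPM, levels taken from an earlier analysis of these data. Between parental OVCAR3 and the DDP-labelled libraries 256 genes met this rule, of which 151 were on in the DDP-labelled libraries and 105 on in parental OVCAR3. By gene type 146 and 95 of them were protein coding. The count for A2780 against parental OVCAR3 was 272, and for the A2780 pair 11. No count at all was found for 69 of the 151 genes over the parental group, and for 32 of the 105 over the DDP-labelled group. Only 23 of the 151 and 30 of the 105 belong to one of the 55 gene lists described further on, so the lists cover a minor part of them.

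**Figure D1:**
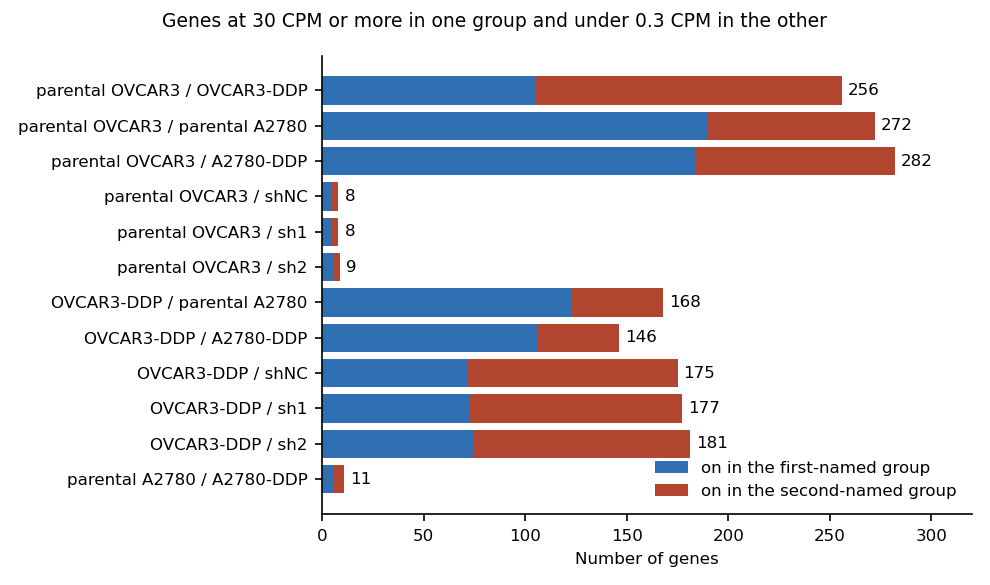
Number of genes at 30 CPM or more in one group and under 0.3 CPM in the other, for 12 pairs of groups. Blue bars count genes on in the first-named group and red bars genes on in the second. Parental OVCAR3 against OVCAR3-DDP gives 256 genes, parental A2780 against A2780-DDP 11, and parental OVCAR3 against the hairpin groups 8 or 9.

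The 12 protein-coding genes of highest level among those on in the DDP-labelled libraries were NID1, IRS4, AMOT, UCHL1, KIF1A, FLNC, EN2, CCND2, HMX1, COL2A1, MAF and POU4F1. Those on in parental OVCAR3 included KRT7, TM4SF1, TGFBI, CD44, S100A6, KRT80, PIEZO2, PRSS21, MYPN, CCN5 and IGFBP3. The promoters of the first 2 of each set with an entry are shown because they stand at the start of genes that are silent in one group and among the highest of their set in the other. Each is the 250 bases upstream of the RefSeq start (GRCh38.p14), 5′ to 3′ on the gene's strand, with CpG dinucleotides, the sites of DNA methylation, in capitals. NID1 lies at chr1:236065091-236065340 on the minus strand, IRS4 at chrX:108736564-108736813 on the minus strand, TM4SF1 at chr3:149377650-149377899 on the minus strand and TGFBI at chr5:136028738-136028987 on the plus strand.
NID1: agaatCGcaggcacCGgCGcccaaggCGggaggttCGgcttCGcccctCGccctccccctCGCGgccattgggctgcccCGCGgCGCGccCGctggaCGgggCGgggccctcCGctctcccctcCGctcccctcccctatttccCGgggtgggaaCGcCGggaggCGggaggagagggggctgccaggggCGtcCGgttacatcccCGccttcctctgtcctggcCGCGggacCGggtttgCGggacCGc
IRS4: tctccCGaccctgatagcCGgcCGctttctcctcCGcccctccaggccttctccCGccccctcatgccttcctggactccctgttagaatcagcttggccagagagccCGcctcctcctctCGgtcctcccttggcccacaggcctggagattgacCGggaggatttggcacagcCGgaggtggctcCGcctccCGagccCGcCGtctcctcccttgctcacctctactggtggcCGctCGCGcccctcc
TM4SF1: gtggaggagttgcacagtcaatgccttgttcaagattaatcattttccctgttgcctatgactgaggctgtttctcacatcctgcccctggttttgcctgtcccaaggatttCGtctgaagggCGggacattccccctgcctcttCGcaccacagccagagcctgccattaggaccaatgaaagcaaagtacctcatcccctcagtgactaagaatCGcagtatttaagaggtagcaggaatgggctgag
TGFBI: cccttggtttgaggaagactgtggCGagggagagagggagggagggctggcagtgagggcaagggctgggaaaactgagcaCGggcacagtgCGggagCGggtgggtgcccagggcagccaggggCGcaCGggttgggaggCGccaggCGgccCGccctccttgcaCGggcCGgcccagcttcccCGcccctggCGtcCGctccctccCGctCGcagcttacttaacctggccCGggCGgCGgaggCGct
These 4 promoters hold 30, 16, 4 and 20 CpG dinucleotides in that order, so TM4SF1 stands apart with few.

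Over the 300-base windows from 250 bases before to 50 after the start, RefSeq gave a promoter for 102 of the 146 protein-coding genes on in the DDP-labelled libraries, 61 of the 95 on in parental OVCAR3 and 11938 of all 14965 tested. A ratio of observed to expected CpG of 0.6 or more, as in CpG islands, was found in 79.4% of the first set, 60.7% of the second and 78.6% of all. Among genes at 30 CPM or more the share was 88.8% in parental OVCAR3 and 89.7% in the DDP-labelled libraries. The genes on in parental OVCAR3 thus had fewer CpG-rich promoters than either background, and the genes on in the DDP-labelled libraries had about the share of all genes and a lower one than the expressed genes. TGANTCA, the core site of the AP-1 factors, was found on either strand in 4.9%, 9.84% and 4.78% of the 3 sets, and TATAAA in 5.88%, 8.2% and 6.37%. CATTCC, the core site of the TEAD factors, was found in 9.8%, 13.1% and 11%, among them TM4SF1. These shares describe letters in a window and were not tested.

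The protein-coding genes on in the DDP-labelled libraries were led by NID1 (nidogen 1, ENSG00000116962.15, GRCh38 chromosome 1, 235975830 to 236065162, minus strand), which links laminin to collagen in basement membranes. It had 0.0558 and 0.0611 CPM in the parental libraries and 465 and 454 CPM in the DDP-labelled ones. The fitted difference was log2 12.68 (SE 0.65; edgeR adjusted p = 9.46e-13). IRS4, an adaptor that passes insulin signals inside the cell, had 0 and 0.0204 CPM in the parental libraries against 452 and 415 CPM. A single parental count gives a ratio of 36830.3 with a 95% counting interval of 6609.8 to 1454767.6. AMOT, the scaffold angiomotin, had 0.0279 and 0.142 CPM against 269 and 249 CPM, a change of log2 11.20 (SE 0.51; edgeR adjusted p = 1.76e-12). UCHL1, a ubiquitin hydrolase abundant in neurons, had 0.0279 and 0 CPM against 235 and 233 CPM. In these 4 genes both DDP-labelled libraries were high, both parental ones were near 0, and the groups did not overlap. On-off genes were chosen for this gap in the same 4 libraries. Their separation and their adjusted p-values, here and below, therefore add no support.

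Genes without any parental count followed. The axonal motor KIF1A had 212 and 216 CPM, EN2, a homeobox factor of the midbrain and hindbrain, 178 and 183 CPM, and HMX1, a homeobox factor of eye and ear, 144 and 154 CPM. MAF, a basic leucine zipper factor, had 150 and 138 CPM, and POU4F1, a factor of sensory neurons, 143 and 141 CPM. Against a floor of 3 counts over the parental group these levels are at least 6060-fold, 5122-fold, 4225-fold, 4086-fold and 4022-fold higher. Structural genes stood beside these factors. FLNC, the muscle filamin, had 0.0279 and 0 CPM in the parental libraries and 208 and 205 CPM in the DDP-labelled ones. COL2A1, the cartilage collagen, had 0.0279 and 0.0204 CPM against 142 and 148 CPM. CCND2, a D-type cyclin that drives entry into the cell cycle, had 0.112 and 0 CPM against 180 and 175 CPM, a change of log2 11.60 (SE 0.72; edgeR adjusted p = 7.13e-12). The set mixes genes of cartilage, muscle, nerve and basement membrane rather than 1 tissue, and A2780 shares part of it: UCHL1 stood at 311 CPM and CCND2 at 155 CPM in parental A2780, while COL2A1 had 0.0626 CPM and NID1 and IRS4 had 0 counts there. Over all 151 genes, 24 were on and 44 off in parental A2780.

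The genes on in parental OVCAR3 were led by KRT7 (ENSG00000135480.17, chromosome 12, 52232520 to 52252186), a keratin of simple epithelium, at 1135 and 1030 CPM against 0.376 and 0.116 CPM in the DDP-labelled libraries. The change was log2 −12.26 (SE 0.35; edgeR adjusted p = 1.70e-12). TM4SF1 had 686 and 644 CPM against 0 counts, and S100A6, a calcium-binding protein, 444 and 509 CPM against 0 counts. These are at least 15217-fold and 11080-fold lower in the DDP-labelled libraries. TGFBI, a matrix protein named for its response to TGF-beta, had 618 and 628 CPM against 0.145 and 0.174 CPM, a change of log2 −12.08 (SE 0.44; edgeR adjusted p = 3.73e-13). The hyaluronan receptor CD44 had 575 and 553 CPM against 0 counts. In all of these both parental libraries were high and both others at or near 0, which follows largely from the rule that chose them.

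The mechanically gated channel PIEZO2 had 217 and 341 CPM in the parental libraries, a wider spread than the genes above, and 0.0868 and 0.232 CPM in the DDP-labelled ones. PRSS21, a serine protease named testisin, had 254 and 232 CPM against 0 counts, at least 5548-fold lower. MYPN, a sarcomere protein, had 201 and 250 CPM against 0.116 and 0.145 CPM. CCN5, a matricellular protein, had 209 and 188 CPM against 0.405 and 0.116 CPM, and IGFBP3, which binds insulin-like growth factors, 154 and 152 CPM against 0 counts. In the DDP-labelled libraries these genes were near 0 as well. Over all 105 genes parental A2780 had 9 on and 68 off, so this set is mostly off in A2780 as well, with TM4SF1 (406 CPM) and IGFBP3 (231 CPM) among the exceptions.

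**Figure D2:**
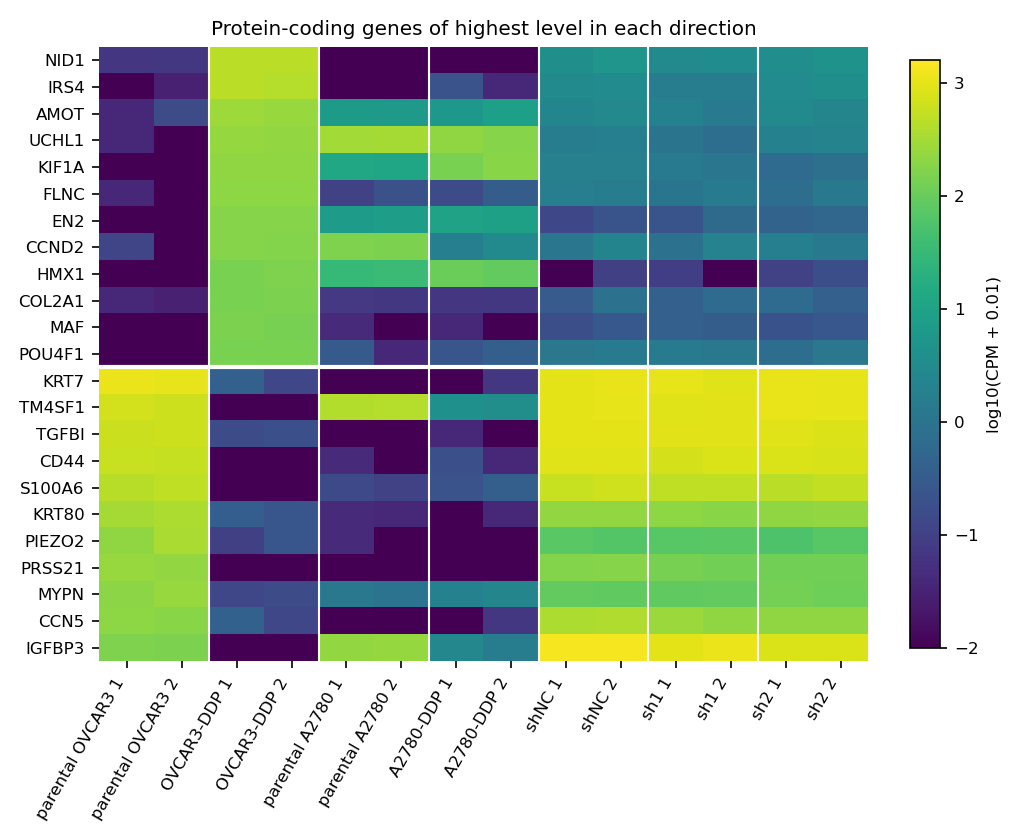
Level of the protein-coding genes of highest mean CPM in each direction (rows) in each of the 14 libraries (columns), as log10(CPM + 0.01). The upper 12 are on in OVCAR3-DDP alone of the OVCAR3-labelled groups, and the lower 11 are on in parental OVCAR3 and in all 6 hairpin libraries.

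The hairpin libraries were not empty of the 151 genes. Gene by gene, the median level in each of the 6 hairpin libraries lay between 0.559% and 0.693% of that in the DDP-labelled libraries. Only 4 to 12 of the 151 genes had no count in a hairpin library, although these libraries are shallower, against 82 and 93 in the parental ones. The rule that chose the genes holds the parental values low, here and in the sums below, and did not use the hairpin libraries. The parental libraries are therefore no neutral baseline for these genes. Among the 12 protein-coding genes of highest level, the level in shNC ran from 0.0435 CPM for HMX1 to 4.51 CPM for NID1. The 2 genes that were on in shNC are noncoding, and they had higher levels than NID1 both there and in the DDP-labelled libraries. Summed over the 146 protein-coding genes, the hairpin libraries held 0.746% to 0.858% of the level in the DDP-labelled libraries, and the parental libraries 0.0593% and 0.0719%. The sum over all 151 genes gave 1.09% to 1.41% in the hairpin libraries, since a few noncoding RNAs hold much of that sum. The same measure for 22 genes on in parental A2780 and off in both parental OVCAR3 and the DDP-labelled libraries gave medians of 0% to 0.0374% in the hairpin libraries, with 10 to 13 of 22 at 0 counts. In sum these 22 genes stood at 0.239% to 0.369% of their A2780 level in the hairpin libraries, above the 0.0306% to 0.0628% of the parental OVCAR3 and DDP-labelled ones. The choice of the 22 genes holds the latter values low as well. The protein-coding sum and this set of 22 were added after the data were seen. In the opposite direction the 95 protein-coding genes on in parental OVCAR3 stood at 119% to 137% of their parental sum in the hairpin libraries and at 0.0824% and 0.0662% in the DDP-labelled ones. The hairpin libraries also stood apart in reads with several alignments (4.64% to 4.99%, against 2.36% to 3.22% in the other 8 libraries) and in mitochondrial messenger RNA (0.726% to 0.947% of counts, against 2.31% to 3.51%). The part of these in the results was not tested.

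**Figure D3:**
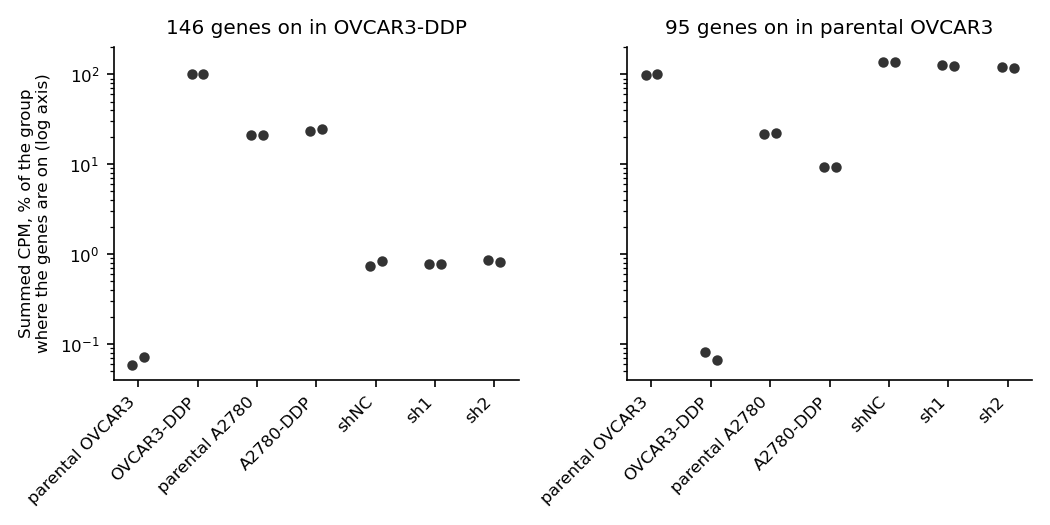
Summed CPM of the 146 protein-coding genes on in OVCAR3-DDP (left) and of the 95 on in parental OVCAR3 (right), as a percentage of the mean of the group where they are on, on a log axis. Each point is 1 of the 14 libraries. On the left the hairpin libraries lie between 0.746% and 0.858% and the parental OVCAR3 libraries at 0.0593% and 0.0719%.

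Known features of the line were read first in both groups. The carcinoma keratins were present in parental OVCAR3: KRT8 had 1492 and 1354 CPM there and 388 and 418 CPM in the DDP-labelled libraries (log2 −2.0, SE 0.10; edgeR adjusted p = 1.15e-09), and its partner KRT18 875 and 767 CPM against 127 and 135 CPM (log2 −2.83, SE 0.11). KRT19 had 113 and 85.4 CPM against 0 counts, at least 2236-fold lower. KRT8 and KRT18 were thus lower in the DDP-labelled libraries but expressed in both groups, while KRT19 had no counts in the DDP-labelled ones. Cyclin E1 (CCNE1), whose gene is known to be amplified in OVCAR3, had 31.3 and 32.0 CPM against 24.2 and 23.5 CPM (log2 −0.58, SE 0.11; edgeR adjusted p = 0.000314). Some defining features were weak in the parental libraries themselves: E-cadherin (CDH1) had 0.251 and 0.142 CPM, PAX8 3.46 and 4.70 CPM, the oestrogen receptor ESR1 0.139 and 0.713 CPM, and WT1, a factor common in serous carcinoma, 0 counts. The label of the parental libraries is thus not borne out by each of its usual markers.

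Of 25 ovarian carcinoma markers, 8 had no parental count and 7 lay under 1 CPM in both groups. Of the 19 tested, 11 were called lower and 6 higher in the DDP-labelled libraries. Their median log2 difference was −2.85, against −0.03 over all genes. Lower were the folate receptor FOLR1 (431 and 430 CPM to 0.376 and 0.232 CPM), mesothelin MSLN (260 and 239 CPM to 0.608 and 0.319 CPM), the surface protein CD24 (130 and 112 CPM to 1.74 and 1.57 CPM) and the protease inhibitor SLPI (37.1 and 30.9 CPM to 0.0290 and 0.116 CPM). MUC1, EPCAM, CLDN3 and CLDN4, a mucin, an adhesion molecule and 2 claudins, were lower as well, by log2 −3.57 (SE 0.16), −2.85 (SE 0.17), −6.03 (SE 0.73) and −1.69 (SE 0.24). Higher was CRABP2, which carries retinoic acid, from 1.87 and 0.672 CPM to 205 and 212 CPM (log2 7.26, SE 0.26; edgeR adjusted p = 3.96e-11). WT1 reached 19.3 and 18.7 CPM and EMX2, a homeobox factor of the urogenital tract and forebrain, 7.99 and 6.73 CPM, neither with a parental count (a rise of at least 538-fold and 209-fold). CLDN6, a claudin of embryonic epithelium, rose by log2 6.47 (SE 0.38). The 2 groups thus held different members of the list, and MECOM was not called in either direction (9.51 and 13.6 CPM against 15.7 and 14.8 CPM).

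Keratins moved as a family. Of 13 tested, 13 were called lower and 0 higher, with a median log2 difference of −8.30, or −5.70 with members at 0 counts set at their bound. Of the 16 listed, 4 had no count in the DDP-labelled libraries and 1 had none in the parental ones. KRT80 had 318 and 361 CPM in the parental libraries and 0.347 and 0.232 CPM in the DDP-labelled ones, KRT10 90.9 and 104 CPM against 19 and 16.8 CPM, and KRT16 4.96 and 5.19 CPM against 0 and 0.0290 CPM. Junction genes parted. Of 27 tested, 14 were lower and 9 higher, with a median of −0.34, beside 35.2% and 33.4% of all genes. The plakophilin PKP3 fell by log2 −9.55 (SE 0.51), the epithelial splicing factor ESRP2 by −7.00 (SE 0.26) and the epithelial factor ELF3 by −5.19 (SE 0.19). The desmosome proteins JUP (260 and 215 CPM against 276 and 291 CPM) and DSP (160 and 207 CPM against 194 and 177 CPM) were not called, and their libraries overlapped in DSP. The tight junction protein CGN rose from 11.6 and 14.9 CPM to 49.5 and 46.8 CPM (log2 1.68, SE 0.17; edgeR adjusted p = 1.29e-06). An epithelial junction set was thus present in both groups, with different members.

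Mesenchymal genes showed no common direction. Of 19 tested, 7 were higher and 8 lower, beside 33.4% and 35.2% of all genes. This balance became 9 and 8 with upper-quartile scaling. Vimentin (VIM), the filament of mesenchymal cells, had 1103 and 930 CPM in the parental libraries and 820 and 842 CPM in the DDP-labelled ones (log2 −0.47, SE 0.10). N-cadherin (CDH2) fell from 276 and 280 CPM to 96.7 and 90.5 CPM (log2 −1.75, SE 0.09), and fibronectin (FN1) from 187 and 311 CPM to 86.2 and 87.2 CPM (log2 −1.70, SE 0.18). SPARC, a matrix glycoprotein, rose from 0.195 and 0.0204 CPM to 83.8 and 83.0 CPM (log2 9.56, SE 0.51), and the factor SNAI2 by log2 2.15 (SE 0.14). Of 9 mesothelial markers 2 were higher and 4 lower, beside the same shares of all genes. PDPN (podoplanin) reached 42.7 and 43.1 CPM from 0 counts, at least 1216-fold higher, while UPK3B fell by log2 −6.95 (SE 0.55) and calretinin (CALB2) was near 0 in both groups.

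Neuroectodermal factors were mostly higher. Of 27 tested, 25 were called higher and 1 lower in the DDP-labelled libraries, with a median log2 difference of 5.67. Of the 35 listed, 15 had no parental count and 3 had none in the DDP-labelled libraries. A gene without counts in one group can only be called higher in the other, so part of this one-sidedness was fixed. PAX3, a factor of neural crest and muscle precursors, reached 24.4 and 24.1 CPM and POU3F3, a factor of forebrain and kidney, 77.1 and 75.4 CPM, both from 0 parental counts. These are at least 687-fold and 2160-fold higher. ZIC2, a neural plate factor, rose from 12.5 and 12.3 CPM to 113 and 105 CPM (log2 2.96, SE 0.11; edgeR adjusted p = 5.90e-11). DLX2 rose from 2.20 and 1.89 CPM to 94.8 and 98.0 CPM (log2 5.39, SE 0.13), and FOXD3, a neural crest factor, from 1.78 and 1.43 CPM to 48.5 and 53.2 CPM (log2 4.82, SE 0.17). PAX6, a factor of eye and forebrain, was the 1 that fell, from 40.4 and 55.2 CPM to 35.4 and 39.1 CPM (log2 −0.54, SE 0.15; edgeR adjusted p = 0.00519), a call lost without the second parental library (adjusted p = 0.0575) or the first DDP-labelled one (adjusted p = 0.0596). The parental libraries thus held some of these factors too, and DLX1 was not called (17.1 and 18.7 CPM against 21.8 and 25.9 CPM).

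Genes of the mature neuron were less one-sided. Of 32 genes of neuronal cytoskeleton and synapse, 18 were higher and 9 lower, with a median of 1.10. TUBB2B, a neuronal tubulin, rose from 1.03 and 1.61 CPM to 109 and 105 CPM (log2 6.13, SE 0.22; edgeR adjusted p = 4.59e-11), and the motor KIF5C from 0.167 and 0.204 CPM to 23.6 and 22.5 CPM (log2 6.74, SE 0.36). The microtubule protein tau (MAPT) rose by log2 0.91 (SE 0.11). The synaptic membrane fusion protein SNAP25 fell instead, from 15.9 and 23.2 CPM to 0.0579 and 0.174 CPM (log2 −7.53, SE 0.51), and the fusion gene VAMP2 was not called (31.2 and 31.1 CPM against 34.2 and 33.8 CPM). Of 12 glial and neural crest markers, 6 were higher and 4 lower, beside 33.4% and 35.2% of all genes. HAND2, a factor of sympathetic neurons and heart, rose by log2 6.93 (SE 0.40) and the neurotrophin receptor NGFR by 4.87 (SE 0.27), while the myelin gene MBP fell by −3.66 (SE 0.19). The factors of early patterning rose together in these libraries without the whole set of a differentiated neuron.

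Factors of the developing kidney were also higher. Of 22 nephric factors tested, 16 were higher and 4 lower, with a median of 3.66. Of the 28 listed, 7 had no parental count and 3 had none in the DDP-labelled libraries, so their direction was fixed. SALL1, a zinc finger factor of the kidney mesenchyme, reached 78.4 and 77.0 CPM from 0 parental counts, at least 2202-fold higher. GATA3, a factor of the nephric duct, rose from 1.25 and 1.67 CPM to 48.8 and 53.9 CPM (log2 4.94, SE 0.19). EYA4 and PAX8 went the other way, by log2 −1.21 (SE 0.15) and −6.23 (SE 0.73). The list shares WT1, HOX genes and PAX8 with other lists here, so it is not separate from them. Of 13 pluripotency and oncofetal genes 9 were higher and 4 lower. LIN28B, which blocks let-7 maturation, reached 54.5 and 51.6 CPM from 0 counts, at least 1503-fold higher, and the RNA-binding IGF2BP1 rose from 78.2 and 92.5 CPM to 269.5 and 256 CPM (log2 1.45, SE 0.12).

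Most genes of all 4 HOX clusters were higher. Called higher were 10 of 11 HOXA genes, 8 of 9 HOXB, 7 of 9 HOXC and 9 of 9 HOXD, and the 1 called lower was HOXB7 (log2 −0.63, SE 0.11). Medians were 1.93, 1.70, 1.72 and 4.97, the last 3.67 with HOXD genes at 0 counts set at their bound. HOXD13, the gene of the limb tips and genital tract, had 0.251 and 0.0814 CPM in the parental libraries and 116 and 112 CPM in the DDP-labelled ones. HOXD11 had 0.864 and 0.672 CPM against 25.9 and 28.0 CPM (log2 4.97, SE 0.23), while HOXD8 and HOXD9 of the same cluster differed by only 1.01 (SE 0.18) and 0.73 (SE 0.14). In HOXA the largest difference was HOXA5 (2.48 and 1.75 CPM against 57.4 and 56.3 CPM), and HOXA11 was not called (40.8 and 38.2 CPM against 37.2 and 37.2 CPM). HOXC10 was not called either (59.8 and 46.0 CPM against 54.6 and 49.6 CPM). HOXD12 was low in the DDP-labelled libraries as well (0.463 and 0.435 CPM, from 0 parental counts). HOX genes overlap on both strands and share antisense transcripts, and the strand setting of the counting is not given, so single values are uncertain. The same limit holds for other genes that overlap a neighbour.

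**Figure D4:**
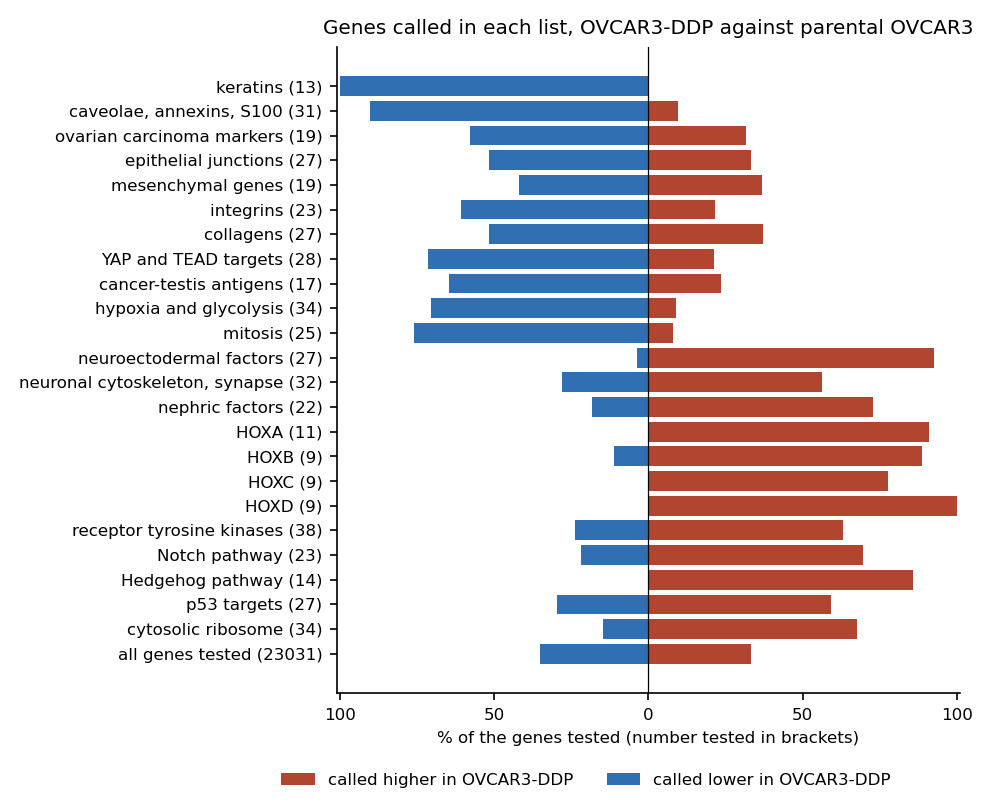
Percentage of the tested members of 23 gene lists, and of all genes tested, that were called higher (red, to the right) or lower (blue, to the left) in OVCAR3-DDP than in parental OVCAR3. Keratins were lower in 13 of 13 and HOXD genes higher in 9 of 9, and all genes tested were higher in 33.4% and lower in 35.2%.

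Genes silenced in most adult tissue also differed. Of 17 cancer-testis antigens tested, which are germline genes that tumours can switch on, 11 were lower and 4 higher, with a median of −5.41, or −2.70 with members at 0 counts set at their bound. MAGEA1 had 77.0 and 61.4 CPM in the parental libraries and 0 counts in the others, at least 1564-fold lower, and CT83 29.8 and 29.3 CPM against 0 counts, at least 679-fold lower. MAGEA3 had 88.7 and 80.6 CPM against 0 and 0.0290 CPM, a ratio of 5797.4 (95% counting interval 1040.2 to 229018.5), though MAGEA3 and MAGEA6 are near-identical copies whose reads counting can split. Higher were PRAME, from 60.6 and 55.7 CPM to 164 and 169 CPM (log2 1.34, SE 0.09), and MAGEB2 (log2 2.11, SE 0.15). Of 19 imprinted genes 10 were lower and 3 higher, beside 35.2% and 33.4% of all genes. PEG10, a gene derived from a retrotransposon, fell from 608 and 743 CPM to 1.13 and 1.65 CPM (log2 −9.10, SE 0.18; edgeR adjusted p = 5.06e-13), and its imprinted neighbour SGCE from 97.1 and 122 CPM to 20.5 and 19.4 CPM (log2 −2.63, SE 0.12). The maternally expressed RNA H19 fell by log2 −4.65 (SE 0.15), while GRB10 was not called (124 and 122 CPM against 120 and 125 CPM).

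Genes that link the cell to its surroundings were mostly lower. Of 31 genes of caveolae, annexins and the S100 family, 28 were lower and 3 higher, with a median of −3.86. Annexin A2 (ANXA2) fell from 1350 and 1179 CPM to 151 and 147 CPM (log2 −3.27, SE 0.11), the lectin LGALS1 from 418 and 432 CPM to 33.4 and 33.1 CPM (log2 −3.86, SE 0.11) and S100A4 from 555 and 620 CPM to 2.84 and 1.86 CPM. Of 23 integrins, receptors for matrix, 14 were lower and 5 higher, beside 35.2% and 33.4% of all genes. ITGB1, the beta chain shared by most integrins, fell from 726 and 819 CPM to 93.8 and 88.1 CPM (log2 −3.26, SE 0.10; edgeR adjusted p = 6.51e-12), and the laminin receptor chain ITGB4 from 125 and 147 CPM to 5.62 and 5.25 CPM (log2 −4.82, SE 0.13). Collagens were more mixed, with 14 lower and 10 higher of 27, beside 35.2% and 33.4% of all genes. COL5A1 had 1316 and 1714 CPM against 1.01 and 0.784 CPM (log2 −10.89, SE 0.22), and COL7A1, the anchoring fibril collagen, 779 and 955 CPM against 12.6 and 12.8 CPM (log2 −6.27, SE 0.23). COL6A1 went up instead, from 55.1 and 65.6 CPM to 348 and 365 CPM (log2 2.38, SE 0.11), beside COL2A1 and NID1 above.

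The targets of YAP and TEAD, factors that respond to cell spreading and stiffness, were lower in 20 of 28 and higher in 6, with a median of −1.25. YAP1 itself fell from 271 and 307 CPM to 64.3 and 60.3 CPM (log2 −2.39, SE 0.10; edgeR adjusted p = 1.44e-10) and TEAD1 from 363 and 524 CPM to 45.6 and 43.0 CPM (log2 −3.50, SE 0.17). The target CCN1 fell by log2 −1.33 (SE 0.09), and AJUBA, a junction protein that feeds into the pathway, by −2.68 (SE 0.09). AMOT, which holds YAP in the cytoplasm, was 1 of the highest genes on in the DDP-labelled libraries. The AP-1 factor JUN rose from 46.7 and 50.6 CPM to 1230 and 1270 CPM (log2 4.51, SE 0.10; edgeR adjusted p = 8.48e-13), and its mean in shNC was 916 CPM, so this gene stood with the DDP-labelled libraries and not with parental OVCAR3. The AP-1 partner FOSL2 fell by log2 −3.33 (SE 0.11) and the feedback gene DUSP4 by −3.47 (SE 0.13). Of the 22 AP-1 and early genes 8 were higher and 11 lower, beside 33.4% and 35.2% of all genes.

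Of 38 receptor tyrosine kinases, 24 were higher and 9 lower, with a median of 1.26, beside 33.4% and 35.2% of all genes. The receptor EGFR fell from 278 and 418 CPM to 32.4 and 33.6 CPM (log2 −3.58, SE 0.18; edgeR adjusted p = 9.54e-10), MET from 239 and 269 CPM to 33.2 and 34.3 CPM (log2 −3.09, SE 0.11) and AXL from 243 and 223 CPM to 3.91 and 3.34 CPM (log2 −6.18, SE 0.13). FGFR1 rose from 15.4 and 15.5 CPM to 190.4 and 183 CPM (log2 3.42, SE 0.11; edgeR adjusted p = 1.41e-11), and FGFR3 from 7.53 and 9.75 CPM to 163 and 164 CPM (log2 4.06, SE 0.13). EPHA4, an axon guidance receptor, rose by log2 3.87 (SE 0.25). ERBB2 differed little, with 82.5 and 85.6 CPM against 122 and 126 CPM (log2 0.38, SE 0.09). The receptors for EGF and HGF were thus the higher ones in the parental libraries and 2 of the FGF receptors in the others.

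Notch, a pathway in which a ligand on one cell triggers the cleavage of a receptor on its neighbour, was higher in 16 of 23 genes and lower in 5, with a median of 2.17. Among the receptors NOTCH3 rose from 3.82 and 5.01 CPM to 377 and 383 CPM (log2 6.24, SE 0.19; edgeR adjusted p = 1.16e-11) and NOTCH1 from 69.7 and 81.6 CPM to 275 and 269 CPM (log2 1.67, SE 0.14), while NOTCH2 fell from 312 and 507 CPM to 252 and 236.5 CPM (log2 −0.92, SE 0.20). The ligand JAG2 rose by log2 0.74 (SE 0.10). Among the targets HEY1 rose from 6.64 and 4.66 CPM to 256 and 249 CPM (log2 5.32, SE 0.17), HES1 by 3.87 (SE 0.18), HES4 by 3.82 (SE 0.16) and NRARP by 3.29 (SE 0.16), and HES2 was not called. In the Hedgehog pathway 12 of 14 genes were higher and 0 lower, with a median of 1.79. The transducer SMO reached 109 and 107 CPM from 0 parental counts, at least 3062-fold higher. The factor GLI3 rose by log2 1.94 (SE 0.12), the co-receptor BOC by 2.59 (SE 0.11) and the target genes PTCH1 and GLI1 by 0.72 (SE 0.20) and 1.21 (SE 0.19), with edgeR's adjusted p of PTCH1 at 0.0529 without the first DDP-labelled library. Most receptors, transducers and targets of these 2 pathways were thus higher, with NOTCH2 an exception.

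Of 38 Wnt genes 19 were higher and 14 lower, beside 33.4% and 35.2% of all genes. The ligand WNT5A fell from 186 and 220 CPM to 26.5 and 26.5 CPM (log2 −3.11, SE 0.11) and the inhibitor DKK1 from 167 and 145 CPM to 1.74 and 1.57 CPM (log2 −6.74, SE 0.18), while the receptor FZD7 rose from 11.2 and 12.2 CPM to 97.8 and 99.95 CPM (log2 2.90, SE 0.10). Of 34 genes of TGF-beta, BMP and activin signalling 13 were higher and 13 lower, near the shares of all genes. The ligand BMP7 reached 103 and 106.5 CPM from 0 counts, at least 2968-fold higher. The BMP target ID1 fell from 161 and 137 CPM to 25.7 and 28.8 CPM (log2 −2.63, SE 0.14), ID2 rose from 5.97 and 5.17 CPM to 136 and 140.5 CPM (log2 4.46, SE 0.13), and ID3 was not called. ID1 and ID2 thus moved in opposite directions.

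Immune genes went both ways within each list, where over all genes 33.4% were called higher and 35.2% lower. Innate sensors were lower in 11 of 21 and higher in 7. The DNA sensor adaptor STING1 fell from 76.9 and 76.8 CPM to 9.93 and 10.4 CPM (log2 −3.10, SE 0.12), the DNA sensor IFI16 from 42.7 and 47.3 CPM to 0.0868 and 0.0581 CPM (log2 −9.38, SE 0.65) and the inflammatory caspase CASP4 from 48.6 and 58.5 CPM to 0.0868 and 0.0871 CPM (log2 −9.38, SE 0.59). The RNA sensor IFIH1 rose from 12.2 and 10.7 CPM to 37.8 and 38.3 CPM (log2 1.56, SE 0.11). Of 37 interferon-stimulated genes 21 were lower and 11 higher. IFIT2 rose from 31.9 and 29.8 CPM to 187 and 191 CPM (log2 2.44, SE 0.10) and IFIT1 by 1.98 (SE 0.10), while IFITM3, which blocks virus entry, fell from 187 and 154 CPM to 16.4 and 17.8 CPM (log2 −3.50, SE 0.13). The signal transducer STAT5A fell from 63.6 and 67.7 CPM to 0.174 and 0.145 CPM (log2 −8.83, SE 0.44). Of 17 genes of MHC class I 9 were lower and 4 higher. HLA-B was not called (351 and 282 CPM against 398 and 414 CPM), the invariant chain B2M fell by log2 −1.50 (SE 0.10) and the immunoproteasome subunit PSMB8 had 92.8 and 76.7 CPM against 0.0290 and 0.0581 CPM.

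The aim of the series concerns cisplatin, so genes that move platinum or repair its damage were read in the same way. Of 22 platinum transport genes 10 were higher and 9 lower, with a median of 0.06, beside 33.4% and 35.2% of all genes. The copper importer SLC31A1, through which cisplatin can enter, rose from 52.7 and 59.7 CPM to 112 and 106 CPM (log2 0.78, SE 0.10; edgeR adjusted p = 7.74e-06), and the copper exporter ATP7B from 6.72 and 9.08 CPM to 59.4 and 55.7 CPM (log2 2.68, SE 0.16; edgeR adjusted p = 5.12e-09). The anion channel subunit LRRC8D fell from 105 and 103 CPM to 24.4 and 27.3 CPM (log2 −2.19, SE 0.10). The efflux pump ABCC3 had 61.0 and 77.8 CPM against 0 and 0.145 CPM, and the organic cation transporter SLC22A3 15.1 and 15.1 CPM against 0.0579 and 0 CPM. Of 37 genes of glutathione, metallothionein and NRF2 response 23 were lower and 9 higher. MT2A, a metallothionein that binds metals, fell from 139 and 123 CPM to 14.2 and 13.3 CPM (log2 −3.43, SE 0.14), and the cystine importer SLC7A11 from 118 and 151 CPM to 20.9 and 24.6 CPM (log2 −2.74, SE 0.13). GPX4, which repairs oxidized lipids, rose from 172 and 126 CPM to 831.5 and 880.2 CPM (log2 2.34, SE 0.14).

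Of 36 genes of homologous recombination, Fanconi and mismatch repair 16 were lower and 7 higher, with a median of −0.20. Over all genes the shares were 35.2% and 33.4%. BRCA1 fell by log2 −0.47 (SE 0.09), and BRCA2 was not called (18.1 and 21.9 CPM against 19.9 and 18.8 CPM). MLH3, a mismatch repair subunit, fell from 35.1 and 39.0 CPM to 2.37 and 2.50 CPM (log2 −4.11, SE 0.16). FANCD2 rose by log2 1.41 (SE 0.10). Of 23 nucleotide excision repair genes 9 were higher and 7 lower, with a median of 0.01, beside 33.4% and 35.2% of all genes.

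Targets of p53 were higher in 16 of 27 and lower in 8, with a median of 0.40, beside 33.4% and 35.2% of all genes. BTG2, an inhibitor of proliferation, rose from 7.64 and 7.37 CPM to 69.0 and 66.9 CPM (log2 3.0, SE 0.13; edgeR adjusted p = 3.62e-10), SESN1 by 2.20 (SE 0.16) and the death inducer BBC3 from 21.8 and 21.9 CPM to 97.4 and 105 CPM (log2 2.03, SE 0.11), while GDF15 fell by −3.09 (SE 0.15). Regulators of apoptosis were even, with 11 higher and 11 lower of 28, beside 33.4% and 35.2% of all genes. The survival proteins BCL2L1 and MCL1 fell, from 222 and 210 CPM to 33.2 and 31.1 CPM (log2 −2.92, SE 0.10) and from 430.0 and 445 CPM to 141 and 137 CPM (log2 −1.83, SE 0.08). Mitotic genes were lower in 19 of 25 and higher in 2. ANLN, a protein of the cleavage furrow, fell from 170 and 183 CPM to 58.8 and 60.8 CPM (log2 −1.74, SE 0.09), and CDC20 was not called (231 and 214 CPM against 252 and 252 CPM). Replication histones, whose messenger RNAs mostly lack a poly(A) tail, were read as a sign of RNA quality and selection. They were lower in 18 of 19, with a median of −2.99. Mitochondrially encoded genes, read for the same purpose, were lower in 8 of 13 and higher in 2, with a median of −0.51. The part of RNA quality or selection in the results was not tested.

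Housekeeping pathways differed by kind. Of 34 genes of hypoxia and glycolysis 24 were lower and 3 higher, with a median of −0.79. The lactate exporter SLC16A3 fell from 439 and 465 CPM to 7.32 and 7.17 CPM (log2 −6.14, SE 0.11; edgeR adjusted p = 3.73e-13), PGK1, a glycolytic kinase, from 1197 and 1123 CPM to 354 and 368 CPM (log2 −1.86, SE 0.09), and LDHA, which makes lactate, by −1.74 (SE 0.09). VHL, which marks hypoxia-inducible factors for degradation, rose by 1.15 (SE 0.16). Of 33 respiratory chain genes 23 were lower and 1 higher, with a median of −0.53. Of 34 genes of the cytosolic ribosome 23 were higher and 5 lower, with a median of 0.50. Steroid and cytokine signals differed as well. The glucocorticoid receptor NR3C1 fell from 128 and 156 CPM to 31.8 and 33.6 CPM (log2 −2.29, SE 0.14), the cytokine receptor OSMR from 155 and 207 CPM to 1.65 and 1.31 CPM (log2 −7.11, SE 0.18), and the chemokine CCL5 rose from 8.0 and 8.31 CPM to 393 and 412 CPM (log2 5.45, SE 0.12; edgeR adjusted p = 8.11e-13).

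Among 34 tumour suppressors and oncogenes 19 were higher and 10 lower, 8 and 3 of them by 2-fold or more. STK11, the kinase LKB1, had 8.76 and 10.7 CPM in the parental libraries and 296.6 and 297 CPM in the DDP-labelled ones (log2 4.75, SE 0.11; edgeR adjusted p = 1.60e-12). CDKN2A rose from 162 and 158 CPM to 359.5 and 371 CPM (log2 1.02, SE 0.09), and RB1 by 0.86 (SE 0.16). MYC was not called (605 and 544 CPM against 595 and 612.5 CPM), while MYCL rose from 1.12 and 1.61 CPM to 25 and 25.7 CPM (log2 4.01, SE 0.17). Of the 10 protein-coding genes with the highest level, the elongation factor EEF2 rose from 1785 and 1893 CPM to 6357 and 6653 CPM (log2 1.65, SE 0.09), and beta-actin (ACTB) fell from 4040 and 2890 CPM to 1769 and 1795 CPM (log2 −1.14, SE 0.13). Genes often used to set RNA levels against each other thus differed between the groups, and GAPDH did so too (log2 −0.65, SE 0.09).

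Of the editing genes the series is about, ADAR, which edits adenosine to inosine in most tissues, had 446 and 559 CPM in the parental libraries and 350 and 335.5 CPM in the DDP-labelled ones (log2 −0.73, SE 0.12; edgeR adjusted p = 0.000113). ADARB1, the second active editing enzyme, had 108 and 135 CPM against 27.7 and 26.6 CPM (log2 −2.34, SE 0.13; edgeR adjusted p = 2.19e-09). Neither group overlapped the other in these genes, and ADARB2 had 0 counts in all 4 libraries. The difference between the lines was −0.75 for ADAR (SE 0.17; edgeR adjusted p = 0.00193) and −2.66 for ADARB1 (SE 0.18; edgeR adjusted p = 4.26e-08), on the log2 scale, OVCAR3 minus A2780. APOBEC3F, a cytidine deaminase, had 0.139 and 0.0814 CPM in the parental libraries and 24.2 and 23.1 CPM in the DDP-labelled ones (log2 7.58, SE 0.48; edgeR adjusted p = 1.02e-11). The deaminase ADAT2, which edits transfer RNA, rose from 16.4 and 17.1 CPM to 43.8 and 44.2 CPM (log2 1.22, SE 0.11), and the helicase DHX9 fell by −1.30 (SE 0.08). In the whole list of 16 tested 8 were higher and 6 lower, beside 33.4% and 35.2% of all genes.

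Where the genes lie was not used to choose them. Runs of at least 4 consecutive tested protein-coding genes, all called in 1 direction with a log2 difference of 3 or more, numbered 34, of which 21 were higher and 13 lower, with 156 genes in all. Parental A2780 against parental OVCAR3 had 32 runs and the A2780 pair 4. The 3 longest runs were lower and hold gene families. A run of 9 keratin genes reached from KRT12 to KRT16 on chromosome 17 (40860943 to 41615899), a run of 9 from SERPINB5 to DSEL on chromosome 18 (63476761 to 67516980), most of them serpins, and a run of 7 S100 genes from S100A6 to S100A14 on chromosome 1 (153534599 to 153616986). KRT80, KRT7, KRT86 and KRT81 formed a run on chromosome 12 (52168996 to 52309163). Lower runs on chromosome 6 (26087281 to 26139116 and 27865355 to 27958182) and chromosome 1 (149813271 to 149886652) held mostly histone genes. Replication histones were read above as a sign of RNA quality and selection, so these runs may not reflect position. Higher runs held HOXD13, HOXD12, HOXD11 and HOXD10 on chromosome 2 (176092891 to 176119942), APOBEC3D to APOBEC3H on chromosome 22 (39021113 to 39104067), PDX1, CDX2, URAD and FLT3 on chromosome 13 (27920020 to 28100592), 5 zinc finger genes from ZNF850 to ZNF568 on chromosome 19 (36714383 to 36998700) and HLA-DRB5 to HLA-DOB of MHC class II on chromosome 6 (32517343 to 32820466). A run on chromosome 1 (235975830 to 236502915) held NID1 with its unrelated neighbours GPR137B, ERO1B and EDARADD.

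Broader stretches differed too. Over 11535 protein-coding genes with a mean of 5 CPM or more, the median difference of chromosome 22 lay 0.73 above the median of all genes on the log2 scale, that of chromosome 19 0.47 above and that of chromosome 6 0.41 above. Chromosomes 18, 15, 10 and 5 lay below it, at −0.71, −0.63, −0.41 and −0.35. For parental A2780 minus parental OVCAR3, chromosomes 22, 19 and 6 stood at 0.073, 0.341 and 0.289. Chromosomes 18, 15, 10 and 5 stood at −1.087, −0.215, 0.178 and 0.034 there. The shifts of chromosomes 18, 19 and 6 are thus not particular to the DDP-labelled libraries, and both contrasts share the parental OVCAR3 libraries. On chromosome 22, 71.0% of 283 genes were called higher and 11.7% lower. In windows of 10 Mb with at least 10 such genes, 91 of 287 differed by 0.5 or more, against 81 for A2780 minus parental OVCAR3 and 5 within A2780. The median absolute window difference was 0.330, 0.329 and 0.073. Gene dosage was not measured.

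**Figure D5:**
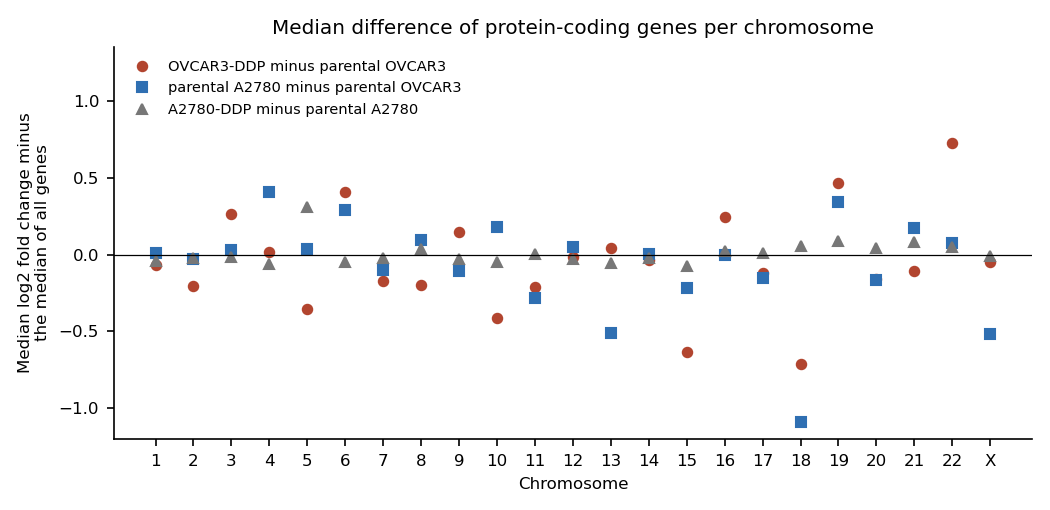
Median log2 fold change of protein-coding genes on each chromosome minus the median of all such genes, for 3 contrasts. OVCAR3-DDP minus parental OVCAR3 (circles) reaches 0.725 on chromosome 22 and −0.710 on chromosome 18. Parental A2780 minus parental OVCAR3 (squares) reaches 0.405 on chromosome 4 and −1.087 on chromosome 18. A2780-DDP minus parental A2780 (triangles) stays within 0.1 of zero except on chromosome 5 (0.307).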

How the data were processed

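Gene counts of 14 RNA-sequencing libraries, as deposited by the authors, were used. Per the submitters' processing notes, the tools and genome named are FastQC 0.11.9, STAR 2.7.8a, SAMtools, HTSeq 2.0.3 and GRCh38.p13. Total RNA was extracted with Trizol, per the labels' protocols. The strand setting and the annotation release were not given in the sources used here. The 5 summary lines of a file stayed out of library sizes, which left 62757 genes. GENCODE 29 gave coordinates for 58318 genes. Genes that passed filterByExpr (minimum count 10) were tested with edgeR 4.0.16 (quasi-likelihood F-test, TMM scaling) in 1 fit of the 8 parental and DDP libraries, with 1 mean per group. The fit had 4 residual degrees of freedom. The shNC comparison used a fit of all 14 libraries. DESeq2 1.42.0 and limma 3.58.1 served as alternatives, and the scripts were tested on simulated data.

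Genes without counts in a group got a bound from 3 counts over the group. Genes with 1 to 3 counts got a ratio with a 95% counting interval. Named genes were, by rule, the 12 highest protein-coding on-off genes of each direction, up to 6 called and 3 other members of each list, all ovarian, OVCAR3 and tumour suppressor list members, genes of runs and the 10 highest genes. The comparison and the 55 gene lists were chosen with earlier results of these data known. Within a line, replicate numbers did not pair the libraries: deviations of same-numbered libraries correlated at −0.147 in OVCAR3 and −0.231 in A2780 over 13172 genes. Across the lines they correlated at 0.485 between parental OVCAR3 and A2780-DDP and at 0.115 between the DDP-labelled libraries and parental A2780. The values were −0.141 between the parental groups and −0.099 between the DDP groups. Whether libraries share a processing step was not tested. Alternatives changed the scaling, filter, test, samples, thresholds and replicates. A few genes that the rule names are not reported here.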

Additional observations from a re-analysis of the deposited data

Results flagged for a closer look

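The DDP minus parental difference was tested for a difference between OVCAR3 and A2780. It differed in 12391 of 23031 genes (edgeR adjusted p below 0.05). ADAR differed by −0.75 on the log2 scale, OVCAR3 minus A2780 (SE 0.17; edgeR adjusted p = 0.00193), and ADARB1 by −2.66 (SE 0.18; edgeR adjusted p = 4.26e-08). In OVCAR3 these contrasts rest on the libraries labelled OVCAR3-DDP described above.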

How the results depend on the processing

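A filter of a mean of at least 5 CPM, which tests fewer genes, left 10267 genes called in the main comparison and 4793 at 2-fold, against 4520 for A2780 minus OVCAR3 and 1627 within A2780. On-off genes numbered 469 at 10 and 0.1 CPM, 314 of them on in the DDP-labelled libraries and 155 in parental OVCAR3. At 100 and 1 CPM they numbered 69, with 28 and 41, so the balance turned. CPM with TMM factors gave 134 and 116, against 151 and 105 without them. The excess on the DDP-labelled side thus depends on levels and scaling. Runs numbered 69 at a log2 difference of 2 and 95 with at least 3 genes. The replicate block gave 15564 genes called and 9842 at 2-fold, against 15784 and 10055 without it, and changed no call of a named gene. With the replicate numbers crossed, chosen after the data were seen, the replicate block gave 16080. DESeq2's own test gave 14626, and leaving out each library in turn 13809 to 16474 called and 250 to 261 on-off genes. Of 199 named genes called, 4 lost the call under some alternative (CALB2, PAX6, PTCH1 and URAD) and 0 reversed, while 9 of those not called passed under some alternative, among them DLX1 with DESeq2 size factors (adjusted p = 0.0491 with edgeR). Of the lists printed, the mesenchymal list turned its balance under 4 alternatives, platinum transport under 1, without the first library labelled OVCAR3-DDP, and fibroblast markers under 1, the filter of 5 CPM. Depth limits genes without counts to bounds.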
